A study of Mus musculus with 18 samples.

Results

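The 10 genes described here build and guard sister chromatid cohesion. Rec8, Smc1b and Stag3 encode cohesin subunits of meiotic cells, and Sycp2 and Sycp3 encode proteins of the chromosome axis in meiotic prophase. Sgo1 and Sgo2a encode shugoshins, and Rad21, Smc3 and Smc1a encode cohesin subunits used by dividing cells in general. They were chosen by name, as meiotic genes beside general ones, and all 10 were found among the 55416 genes measured. Of these, 9 were among the 16959 genes abundant enough to be tested, and Rec8 was not.

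RNA came from the ovaries of 18 wild-type Balb/c females, with 6 mice per group and 1 library per mouse. Young controls were 8 weeks old and received distilled water, aged controls were 40 weeks old and received distilled water, and treated aged mice were 40 weeks old and received oral SM (Samul-tang, a decoction of herbs) at a dose of 2.5 g/kg. All were dosed 5 times a week for 4 weeks, then injected with 5 IU of pregnant mare serum gonadotropin and, 48 h later, with 5 IU of human chorionic gonadotropin (hCG). Ovaries were collected 16 h after hCG. The 2 aged groups were kept apart inside shared cages. Whole ovaries were used, so that oocytes, which carry the meiotic genes, were measured in a mixture with granulosa, luteal, theca, vessel and immune cells.

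Cohesin is a ring that holds sister chromatids together. SMC3 pairs with SMC1A or, in germ cells, with SMC1B, and a kleisin closes the ring, which is RAD21 in most cells and REC8 in meiosis. A STAG subunit binds the kleisin, and STAG3 is its meiotic form. In oocytes the meiotic rings are loaded before birth and have to last until ovulation, and shugoshins shield centromeric cohesin from cleavage by recruiting the phosphatase PP2A. SYCP2 and SYCP3 form the axial elements on which homologous chromosomes pair.

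The promoter sequences of 4 members are shown as examples, Smc1b beside its general counterpart Smc1a, and Stag3 and Sycp3 among the other meiotic genes. They are RefSeq sequences of the 250 bases before the annotated start, in build GRCm38.p6, written 5′ to 3′ on the strand of the gene, and they were read from a table of promoters and not measured. The windows are chr15:85131958-85132207 on the minus strand for Smc1b, chrX:152016178-152016427 on the plus strand for Smc1a, chr5:138280259-138280508 on the plus strand for Stag3 and chr10:88459337-88459586 on the plus strand for Sycp3. In the GENCODE annotation of GRCm38, Stag3 starts at 138280240, so its whole window lies inside the gene as annotated there. Capitals mark matches to CACGTG, a palindrome, or to GCGGGAA on either strand (its reverse complement is TTCCCGC).
Smc1b: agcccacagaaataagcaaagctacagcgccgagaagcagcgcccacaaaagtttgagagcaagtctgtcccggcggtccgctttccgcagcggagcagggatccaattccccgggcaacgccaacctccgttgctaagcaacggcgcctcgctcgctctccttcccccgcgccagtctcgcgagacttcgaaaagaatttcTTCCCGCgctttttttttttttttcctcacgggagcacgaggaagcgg
Smc1a: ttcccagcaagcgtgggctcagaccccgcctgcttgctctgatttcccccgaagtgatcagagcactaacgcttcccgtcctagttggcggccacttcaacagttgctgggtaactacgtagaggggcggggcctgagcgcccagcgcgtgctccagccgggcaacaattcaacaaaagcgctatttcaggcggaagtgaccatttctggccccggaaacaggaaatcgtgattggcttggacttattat
Stag3: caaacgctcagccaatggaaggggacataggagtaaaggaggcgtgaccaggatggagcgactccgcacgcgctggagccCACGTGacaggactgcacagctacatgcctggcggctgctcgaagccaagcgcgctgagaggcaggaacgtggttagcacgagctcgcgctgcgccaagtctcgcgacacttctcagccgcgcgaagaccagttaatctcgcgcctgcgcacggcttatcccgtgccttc
Sycp3: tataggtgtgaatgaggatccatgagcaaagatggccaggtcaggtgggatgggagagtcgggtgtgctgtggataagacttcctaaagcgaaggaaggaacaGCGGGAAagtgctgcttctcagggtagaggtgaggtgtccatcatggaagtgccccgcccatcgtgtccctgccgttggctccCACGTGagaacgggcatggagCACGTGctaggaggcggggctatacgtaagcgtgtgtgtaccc
GCGGGAA occurred 1 time in the Smc1b window and 1 time in that of Sycp3, CACGTG occurred 1 time in that of Stag3 and 2 times in that of Sycp3, and the Smc1a window held neither. The sequence CNCCTCAG, also searched, was in none of the 4. Of 32851 RefSeq promoter windows of this length, 6.02% held CACGTG, 3.82% GCGGGAA and 6.42% CNCCTCAG on either strand, with no overlap between matches of different motifs in the windows printed. Promoters were listed for 9 of the 10 members, and of those not printed Sgo1 held 2 matches to CACGTG, while Rec8, Sycp2, Sgo2a and Smc3 held no match to the 3 sequences. The meiotic windows printed all hold a match, so they do not stand for the meiotic members as a set. These matches are letters in a window and no measurement of binding.

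In units of 1000000 counts, library depth spanned 9.05 to 14.15 for young controls, 11.61 to 13.43 for aged controls and 14.2 to 20.35 for treated aged mice. The treated libraries were deeper, and the most abundant gene, ENSMUSG00000119584, took 10.73% of their counts on average against 15.45% in aged controls and 14.54% in young controls. The sources used here name no preparation or sequencing batch, and a batch of treated libraries and the treatment itself cannot be told apart. Young mouse 3 and treated mouse 6 correlated least with the rest of their groups (mean r across genes of 0.964 and 0.963, against 0.969 to 0.977 in the other libraries). Ovarian cell markers were present in all groups, with summed levels of 182 to 285 counts per 1000000 (CPM) in young controls for 22 oocyte genes and of 1502 to 2057 CPM for 13 granulosa genes. P-values set a difference between groups against the spread between the mice of these groups.

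In young ovaries the meiotic cohesin genes were detected at levels of a few CPM or less, and in aged ovaries at a fraction of that. Smc1b, Stag3 and Sycp2 were lower in aged than in young controls, by 1.88, 1.54 and 1.54 on the log2 scale in the edgeR test over all genes. The general cohesin genes and the shugoshins did not pass the test, and their intervals excluded drops of the size seen for Smc1b. Of the 9 members tested, 3 were called lower and none higher with age, beside 6.03% of all tested genes called lower, 5.25% called higher and 11.3% called in either direction. The filter on low counts lay near 0.746 CPM, which Smc1b reached in 6 young, 4 aged control and 3 treated libraries, Stag3 in 6, 1 and 1, Sycp2 in 5, 2 and 1 and Sycp3 in 6, 2 and 5. Stag3 and Sycp2 were thus tested largely through their young libraries, and the count of members called supports nothing beyond the values of each gene.

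Smc1b encodes the meiotic SMC1 paralog. Its level was 2.76 CPM in the lowest, 3.89 CPM in the median and 4.95 CPM in the highest young control, and 0.599, 0.956 and 1.93 CPM in the aged controls. All 6 young mice lay above all 6 aged controls, which held for 4.16% of all tested genes in this direction. The fold change was -1.88 ± 0.29 (log2, SE; 95% interval -2.48 to -1.28; edgeR adjusted p = 9.71e-05), a level 3.69-fold lower. These levels rested on 26 to 67 counts per young library and on 7 to 24 counts per aged control. In bulk ovary, fewer oocytes and less RNA per oocyte cannot be told apart.

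Stag3 encodes the meiotic STAG subunit. It ran from 0.851 through a median of 1.18 to 1.70 CPM in young controls, and from 0.0855 through 0.347 to 1.04 CPM in aged controls. The groups overlapped through aged control 5, which with 13 counts lay above 2 of the young mice. The fold change of -1.54 ± 0.50 (log2, SE; 95% interval -2.57 to -0.51) had an edgeR adjusted p of 0.046. This call rested on few counts (1 to 13 in aged controls), and it was lost when any 1 of the 6 young mice, or of aged controls 1, 2, 3, 4 and 6, was left out (adjusted p up to 0.106).

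Rec8, the meiotic kleisin, was below the filter and has no test in the fit of 16959 genes. It gave 4 to 16 counts per young library (0.387, 0.677 and 1.18 CPM as lowest, median and highest), and 0 to 8 counts per aged control (0, 0.237 and 0.687 CPM). The groups overlapped, and the library at 0, aged control 5, allows a level of up to 0.241 CPM at 3 counts. With no filter and 33513 genes in the fit, the difference was -1.29 ± 0.61 (log2, SE; edgeR adjusted p = 0.257) and did not pass.

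**Figure D1:**
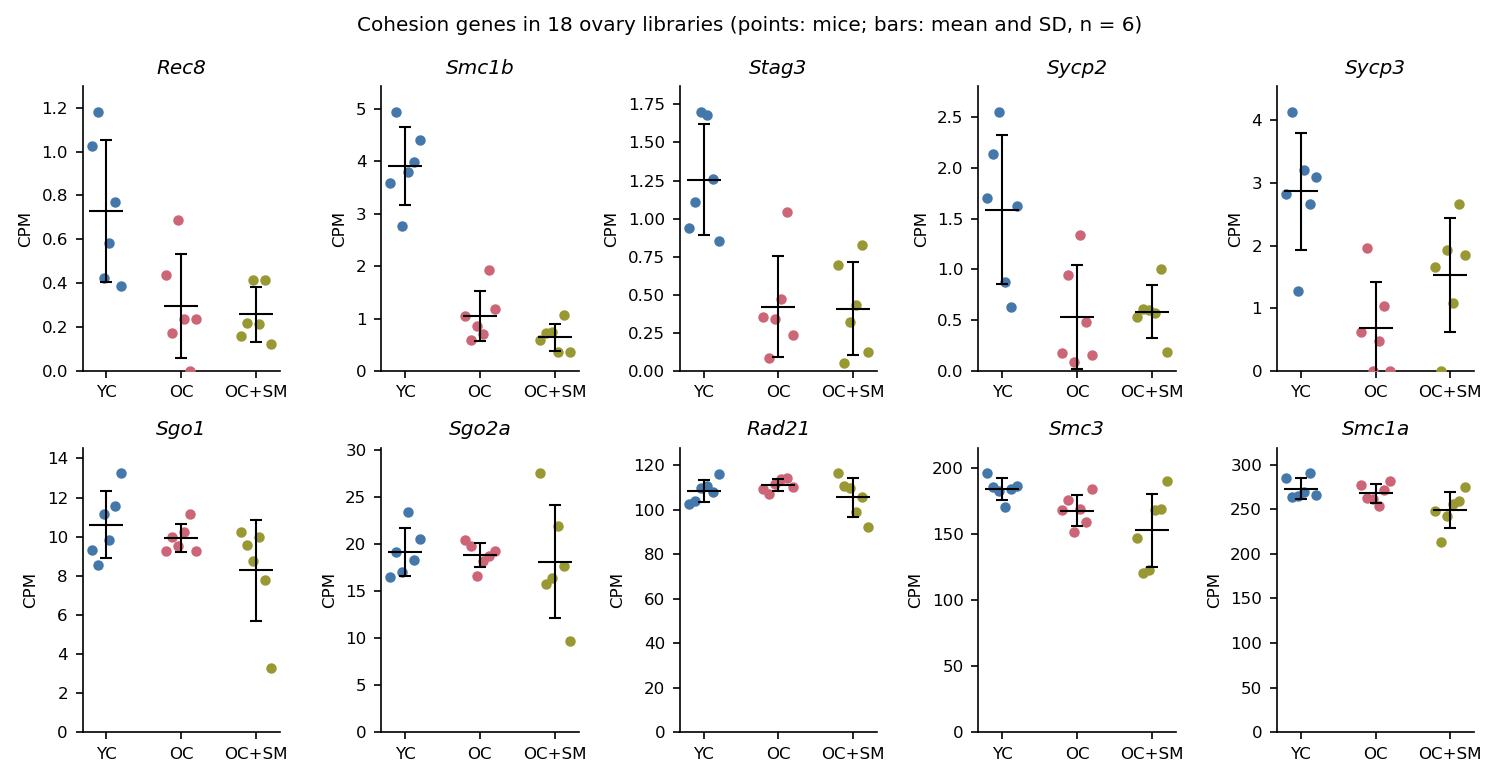
Level of each of the 10 cohesion genes in every library (CPM, separate linear axis per gene) for young controls (YC), aged controls (OC) and treated aged mice (OC+SM), with points for mice and bars for mean and SD (n = 6). The 6 young mice lie above all 12 aged mice for Smc1b, while the groups overlap for Sgo1, Sgo2a, Rad21, Smc3 and Smc1a.

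The axis genes gave like values. Sycp2 ran from 0.63 through 1.67 to 2.55 CPM in young controls and from 0.0859 through 0.329 to 1.34 CPM in aged controls, and the ranges overlapped through aged controls 2 and 4. Its fold change was -1.54 ± 0.50 (log2, SE; 95% interval -2.58 to -0.50; edgeR adjusted p = 0.0477). The call was lost without any 1 of young controls 1, 2, 3 and 6 or aged controls 1, 3, 5 and 6 (adjusted p up to 0.105) and on both scales of the deposited TPM values.

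Sycp3 ran from 1.28 through 2.96 to 4.13 CPM in young controls and from 0 through 0.544 to 1.97 CPM in aged controls. Aged controls 3 and 6 had 0 counts, which allows up to 0.258 and 0.238 CPM, while aged control 2 had 23 counts and lay above young control 3. The difference of -2.07 ± 0.71 (log2, SE; 95% interval -3.56 to -0.58) did not pass the test (edgeR adjusted p = 0.0689), and it passed without aged control 2 (-2.73, adjusted p = 0.0269). In the GENCODE annotation of GRCm38, Sycp3 lies inside Chpt1 on the opposite strand, and whether counting used strand is not stated. Expected counts of Sycp3 were whole (within 0.005) in 3 of 18 libraries, against 14 to 18 for the other members. Those libraries were aged controls 3 and 6 and treated mouse 2, all at 0 counts. Every Sycp3 count above 0 was thus fractional, so its values are uncertain. Chpt1, a choline phosphotransferase gene, rose by 0.31 ± 0.07 (log2, SE; edgeR adjusted p = 0.00208) with age.

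The shugoshins did not pass the test with age. Sgo1, which protects cohesion in mitosis, ran from 8.56 through 10.5 to 13.2 CPM in young controls and from 9.30 through 9.77 to 11.2 CPM in aged controls, with a difference of -0.10 (log2, 95% interval -0.47 to 0.28; edgeR adjusted p = 0.81). Sgo2a, the main protector of REC8 in oocytes, ran from 16.5 through 18.7 to 23.4 CPM and from 16.7 through 19.0 to 20.4 CPM, with a difference of -0.03 (95% interval -0.37 to 0.32; edgeR adjusted p = 0.95). The ranges of both genes overlapped almost wholly. Sgo2a overlaps Kctd18 on the opposite strand in the GRCm38 annotation, and Kctd18 did not pass either (0.04 ± 0.12, log2, SE; edgeR adjusted p = 0.894).

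The general cohesin genes were the best measured of the set. Rad21, the kleisin of dividing cells, had medians of 109 CPM in young and 111 CPM in aged controls (ranges 103 to 116 and 107 to 114 CPM) and a difference of 0.03 (log2, 95% interval -0.09 to 0.15; edgeR adjusted p = 0.791). Smc3, the partner of both SMC1 proteins, had medians of 185 and 168 CPM (ranges 171 to 196 and 152 to 184 CPM) and a difference of -0.13 (95% interval -0.32 to 0.05; edgeR adjusted p = 0.376). Smc1a had medians of 268 and 267 CPM (ranges 264 to 290 and 253 to 282 CPM) and a difference of -0.03 (95% interval -0.15 to 0.09; edgeR adjusted p = 0.831). The widest of these 3 intervals, that of Smc3, ended at -0.32.

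**Figure D2:**
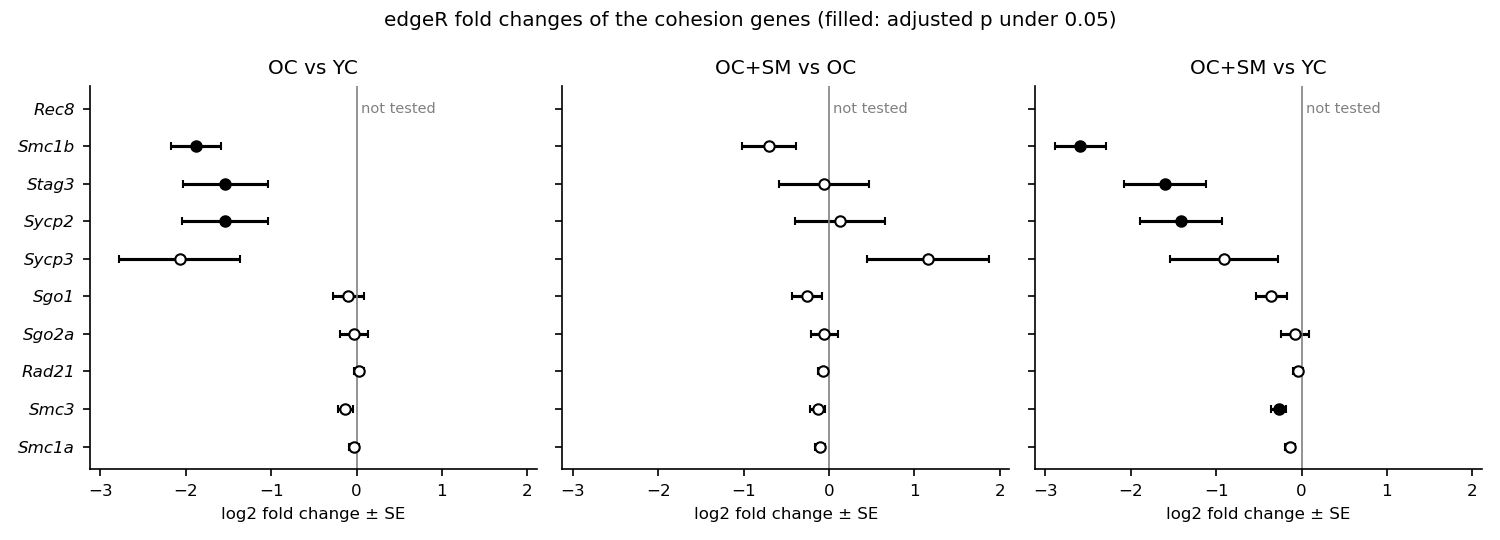
Log2 fold change of each cohesion gene (horizontal axis) in aged controls (OC) against young controls (YC), in treated aged mice (OC+SM) against aged controls and in treated aged mice against young controls. Bars are ± 1 SE derived from the edgeR F statistic, filled points have an adjusted p under 0.05 and Rec8 is marked as not tested. Smc1b lies at -1.88 and -2.59 in the comparisons with young controls, and Rad21 and Smc1a lie between -0.13 and 0.03 in all 3.

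Within a library, the ratio of a meiotic subunit to its general counterpart does not depend on how libraries are scaled. With age, the counterparts Smc1a, Stag2 and Rad21 differed by -0.03, -0.06 and 0.03 (log2, edgeR). The ratios thus largely repeat the changes of the meiotic genes on the same counts and are no independent test. The log2 ratio of Smc1b to Smc1a counts (0.5 added to each) was -6.13 ± 0.29 in young controls and -8.03 ± 0.54 in aged controls (SD, n = 6), and the ranges did not overlap. The difference of -1.90 had a two-sided exact permutation p of 0.00216, the smallest that 924 regroupings of 12 libraries can give (adjusted p = 0.00649 over 9 ratio tests). For Stag3 to Stag2, the somatic STAG subunit, the ratio was -6.14 ± 0.38 and -7.80 ± 1.02 (SD, n = 6; difference -1.67, exact permutation p = 0.00649, adjusted p = 0.0146). For Rec8 to Rad21 it was -7.25 ± 0.68 and -8.81 ± 1.45 (SD, n = 6; difference -1.56, exact permutation p = 0.0238, adjusted p = 0.0357), with overlap. The Rec8 difference rests in part on the 0.5 added to 0 counts in aged control 5 (ratio -11.5). It was -1.03 without that library. The Rec8 call was lost in 8 of 13 alternatives, among them leaving out young control 1, 2, 4 or 5 or aged control 2, 4, 5 or 6 (adjusted p up to 0.0844).

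**Figure D3:**
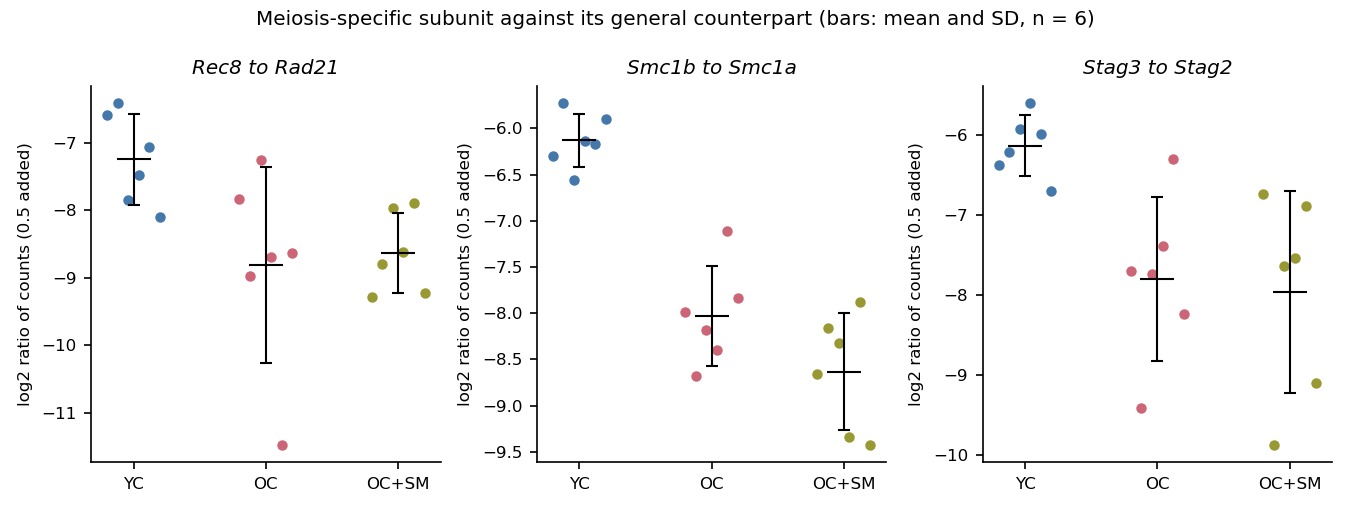
Log2 ratio of counts (0.5 added) of Rec8 to Rad21, Smc1b to Smc1a and Stag3 to Stag2 in each library of young controls (YC), aged controls (OC) and treated aged mice (OC+SM), with mean and SD (n = 6). The Smc1b to Smc1a ratio is -6.13 on average in young controls, above every aged library, and -8.03 and -8.63 in the aged groups.

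Other oocyte transcripts were lower with age as well. Of 22 oocyte genes, 20 were tested, and 19 were called lower in aged controls (median -1.82, log2, beside 0.01 over all tested genes). Their summed level was 58.8 to 103 CPM in aged controls against 182 to 285 CPM in young controls, and none of the 22 was at 0 in a whole group. Gdf9, an oocyte growth factor, ran from 21.8 to 36.6 CPM in young and from 6.96 to 14.0 CPM in aged controls (-1.61 ± 0.17, log2, SE; edgeR adjusted p = 1.44e-06). Zp3, a zona pellucida gene, fell by 1.89 ± 0.23 on the log2 scale (edgeR adjusted p = 8.63e-06).

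Set against the sum of those 22 genes in the same library, none of the 4 meiotic members tested this way passed between young and aged controls, and Rec8, below the filter, was not tested against it. The log2 ratio of Smc1b to the oocyte sum was -5.95 ± 0.32 in young and -6.20 ± 0.50 in aged controls (SD, n = 6; difference -0.25, two-sided exact permutation p = 0.364, adjusted p = 0.491 over 27 tests). The corresponding differences were -0.04 for Stag3, -0.20 for Sycp2 and -1.39 for Sycp3 (adjusted p = 0.969, 0.799 and 0.369, exact permutation tests), with ranges that overlapped. The Sycp3 value rests on the 0.5 added to 0 counts in aged controls 3 and 6, and it was -0.75 without aged control 6. The 5 shugoshin and general cohesin genes had higher ratios in aged controls, by 1.60 for Sgo1, 1.67 for Sgo2a, 1.71 for Rad21, 1.55 for Smc3 and 1.65 for Smc1a (adjusted p = 0.00584 each, exact permutation tests), with no overlap between young and aged controls. Their own edgeR differences lay between -0.13 and 0.03 (log2), while the oocyte sum was lower in aged controls. A gene that does not change gains in this ratio, so these 5 results restate the fall of the oocyte sum. They also count among the 27 tests, where their small p-values lower the adjusted p of the other ratios to the oocyte sum. In bulk RNA the share of these 5 genes that came from oocytes was not measured. Beside 6.03% of all tested genes, 3 of 16 genes of dividing cells were called lower with age and none higher (median -0.09, log2). These were the replication licensing genes Mcm2, Mcm3 and Mcm5, at -0.57, -0.40 and -0.48 (log2; edgeR adjusted p = 0.000174, 0.0224 and 0.00335). Mki67 (-0.03 ± 0.17) and Top2a (-0.16 ± 0.18, log2, SE) did not pass (edgeR adjusted p = 0.939 and 0.652).

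**Figure D4:**
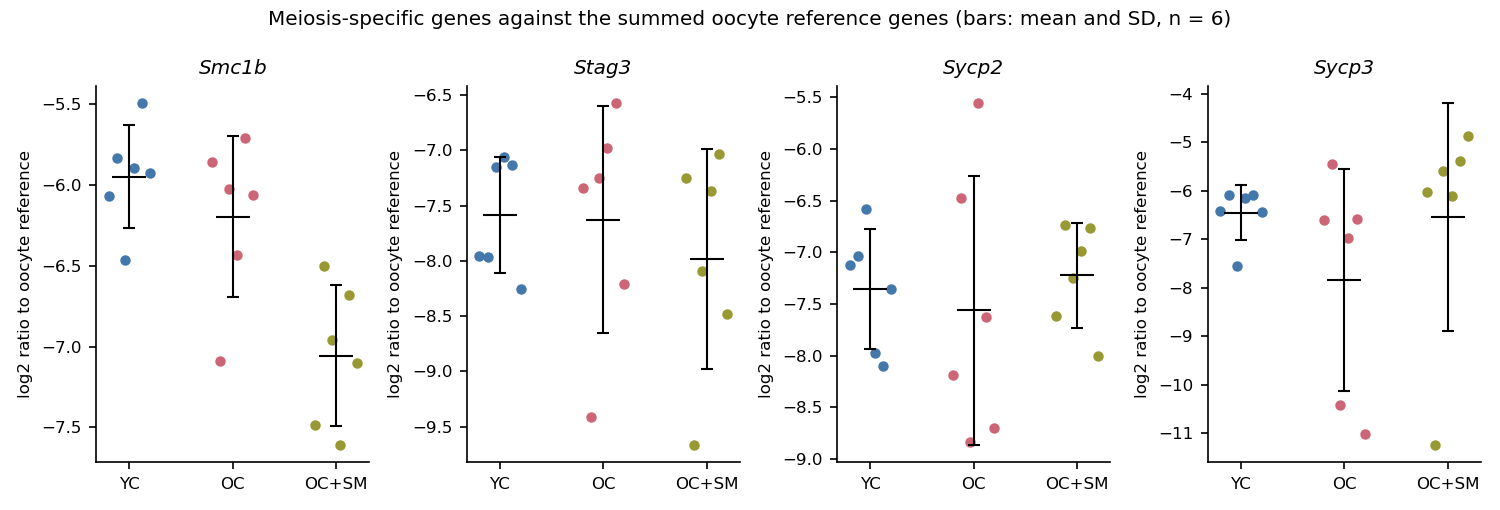
Log2 ratio of Smc1b, Stag3, Sycp2 and Sycp3 counts to the summed counts of 22 oocyte genes (0.5 added; separate vertical axes) per library in young controls (YC), aged controls (OC) and treated aged mice (OC+SM), with mean and SD (n = 6). Smc1b averages -5.95, -6.20 and -7.06 in the 3 groups, and the ranges of young and aged controls overlap for all 4 genes.

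Markers of other ovarian cells moved with age too, and their part in these results was not tested. Over all tested genes, 6.03% were called lower and 5.25% higher with age. Of the granulosa genes, 6 of 12 tested were called lower (summed 1078 to 1537 CPM in aged against 1502 to 2057 CPM in young controls), as were 5 of 7 smooth muscle genes (792 to 896 against 893 to 1540 CPM). Of the luteal and steroidogenic genes, 2 of 10 were called higher (16669 to 19201 against 11091 to 15485 CPM), as were 3 of 10 macrophage genes (334 to 500 against 197 to 451 CPM) and 3 of 9 endothelial genes (431 to 481 against 362 to 416 CPM). Of 8 theca genes, 4 were called lower, among them Insl3 at -1.68 ± 0.17 (log2, SE; edgeR adjusted p = 7.19e-07), and 1 higher (672 to 835 against 764 to 1767 CPM). Of 13 lymphocyte genes, 6 were tested and 3 of them called higher (17.3 to 23.8 against 8.62 to 15.9 CPM). No gene of these 7 lists was at 0 in a whole group. Of 7 oviduct genes, Pax8 was at 0 in all young and aged controls.

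The comparison of treated with untreated aged mice asked whether Samul-tang moved these genes, and it shares the aged controls with the age comparison. None of the 9 tested members was called by edgeR, by DESeq2 or by limma on TPM values. In the edgeR fit 1.04% of all tested genes were called (0.548% higher and 0.489% lower). Of the 9, 1 (Smc1b) had an unadjusted edgeR p under 0.05, beside 2861 of all 16959 tested genes. Smc1b ran from 0.359 through 0.652 to 1.06 CPM (5 to 18 counts) in treated mice, below or within the range of the aged controls. Its difference of -0.71 ± 0.32 (log2, SE; 95% interval -1.36 to -0.05) had an edgeR p of 0.035 and an adjusted p of 0.254. Treated mice 4 and 6, at 5 and 6 counts, were the lowest of the 18.

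Relative to the oocyte sum, Smc1b was lower in treated than in untreated aged mice. The log2 ratio was -7.06 ± 0.44 against -6.20 ± 0.50 (SD, n = 6), a difference of -0.86 (two-sided exact permutation p = 0.013, adjusted p = 0.0292 over 27 tests), and the ranges overlapped (-7.61 to -6.50 against -7.09 to -5.71). The call was lost in 8 of 15 alternatives, with Gdf9 alone as the reference (-0.86, adjusted p = 0.0536) and without aged control 1, 3, 5 or 6 or treated mouse 1, 4 or 6 (adjusted p up to 0.0682). The adjusted p of 0.0292 was also lowered by the shugoshin and general cohesin genes among the 27 tests. Their small p-values against young controls restate the lower oocyte sum of the aged groups. An adjustment over the meiotic members alone was not made, so this call is weak. The oocyte sum was 54.9 to 112 CPM in treated mice. By edgeR or DESeq2, 0 of its 20 tested genes were called against aged controls (median 0.17, log2). An unadjusted edgeR p under 0.05 was found for 2 of the 20, beside 2861 of all 16959 tested genes. The Smc1b to Smc1a ratio was -8.63 ± 0.64 in treated mice (SD, n = 6), a difference from aged controls of -0.60 that did not pass (exact permutation p = 0.121, adjusted p = 0.156).

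The other meiotic members had wide intervals for treatment. Stag3 ran from 0.0552 through 0.376 to 0.828 CPM in treated mice (difference from aged controls -0.06, log2, 95% interval -1.15 to 1.03). Sycp2 ran from 0.184 through 0.586 to 1.01 CPM (0.13, 95% interval -0.95 to 1.21). Sycp3 ran from 0 through 1.75 to 2.66 CPM (1.16, 95% interval -0.34 to 2.66), with 0 counts in treated mouse 2, which allows up to 0.166 CPM. The ranges of all 3 overlapped those of the aged controls. Rec8, at 0.123 to 0.414 CPM and 2 to 9 counts in treated mice, differed by -0.16 ± 0.63 in the fit with no filter (log2, SE; edgeR adjusted p = 0.98).

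Sgo1 and Sgo2a were spread more widely in treated mice than in either control group. Sgo1 ran from 3.32 through 9.19 to 10.2 CPM, with treated mouse 6 lowest and the next at 7.81 CPM (difference from aged controls -0.26, log2, 95% interval -0.63 to 0.11). Sgo2a ran from 9.70 through 17 to 27.5 CPM, with treated mouse 6 lowest and treated mouse 1 highest (-0.05, 95% interval -0.39 to 0.28). In treated mouse 6, Top2a, a gene of dividing cells, was also the lowest of its group at 65.1 CPM, beside a group median of 138 CPM, and its part in the shugoshin values was not tested. Without treated mouse 6 the differences from aged controls were -0.10 for Sgo1 and 0.07 for Sgo2a, neither past the test. Over the 18 libraries, after group means were subtracted, Sgo2a had its highest correlations with Kif15, Top2a and Prc1 (Pearson r = 0.932, 0.917 and 0.89), which are genes of cell division. Sgo1 and Sgo2a correlated with r = 0.743. These correlations are descriptions over libraries that differ in depth and composition.

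The general cohesin genes did not pass for treatment. In treated mice Rad21 ran from 92.1 through 108 to 116 CPM, Smc3 from 121 through 158 to 190 CPM and Smc1a from 214 through 252 to 275 CPM. Their differences from aged controls were -0.07 ± 0.06, -0.14 ± 0.09 and -0.11 ± 0.06 (log2, SE; edgeR adjusted p = 0.55, 0.456 and 0.361). The levels overlapped those of the aged controls for each gene. Within groups, the levels of Smc3 and Smc1a varied together over the 18 libraries (r = 0.759), and those of Rad21 and Smc3 varied in opposite directions (r = -0.676). Treated mouse 6 was the highest of its group for Smc3 and Smc1a and the lowest for Rad21. Both correlations describe libraries that differ in depth and composition, and the part of single libraries in them was not tested.

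Treated aged mice were set against young controls as well, a comparison that shares libraries with both others. Of the 9 members, 4 were called lower and none higher, beside 10.9% of all tested genes called lower, 11.5% called higher and 22.4% called in either direction. Smc1b was 2.59 ± 0.30 lower on the log2 scale (edgeR adjusted p = 1.99e-06) and Stag3 1.60 ± 0.48 lower (adjusted p = 0.0183), each with all treated mice below all young controls, which held for 4.65% of all tested genes in this direction. Sycp2 was 1.41 ± 0.48 lower (edgeR adjusted p = 0.0354) with overlap, and Smc3 was 0.27 ± 0.09 lower (edgeR adjusted p = 0.0286). Sycp3 was at -0.91 ± 0.63, Sgo1 at -0.36 ± 0.18 and Smc1a at -0.13 ± 0.06, and none of these passed (edgeR adjusted p = 0.337, 0.164 and 0.1). Rec8 was at -1.45 ± 0.59 in the fit with no filter (log2, SE; edgeR adjusted p = 0.113), and DESeq2 called it lower. With the percentage of counts in ENSMUSG00000119584 added as a covariate, Smc1b alone of the 4 was called, and Smc3 moved to -0.09 (adjusted p = 0.609).

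Both ratios of Smc1b had their lowest mean in treated mice. Its ratio to Smc1a was lower by 2.50 in treated mice than in young controls and its ratio to the oocyte sum by 1.11, each with no overlap (exact permutation p = 0.00216, adjusted p = 0.00649 and 0.00584). The ratio of Stag3 to Stag2 was lower by 1.83 with no overlap (adjusted p = 0.00649), and that of Rec8 to Rad21 by 1.39 with overlap (exact permutation p = 0.00866, adjusted p = 0.0156). Against the oocyte sum, the differences of -0.40 for Stag3, 0.14 for Sycp2 and -0.09 for Sycp3 did not pass (adjusted p = 0.534, 0.75 and 0.996, exact permutation tests). The Sycp3 ratio rests on treated mouse 2, with 0 counts: without it the difference was 0.85 and passed (exact permutation test, adjusted p = 0.0195).

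Other genes of the cohesin cycle were read beside the members. Of 16 further general cohesin subunits, loaders and regulators, none was called between aged and young controls by edgeR or DESeq2 (median -0.07, log2). Limma on log2(TPM + 1) called 1 lower. An unadjusted edgeR p under 0.05 was found for 3 of the 16, beside 4078 of all 16959 tested genes. Stag2 was at -0.06, the loader Nipbl at -0.02 and the releasing factor Wapl at -0.12. In treated aged mice, none of the 16 was called against aged controls by edgeR, and DESeq2 called Nipbl and Ctcf lower. In this comparison 5 of the 16 had an unadjusted edgeR p under 0.05, beside 2861 of all 16959 tested genes. Against young controls, 5 of the 16 were called lower in treated mice: Nipbl (-0.31), Wapl (-0.32), Pds5b (-0.27), the acetyltransferase gene Esco2 (-0.49) and Ctcf (-0.22), the last encoding the DNA-binding factor at which cohesin stops. Of all tested genes, 10.9% were called lower in that comparison.

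Genes that release or protect cohesin were 26, of which 24 were tested. Of these, 1 was called higher and 2 lower with age, beside 11.3% of all tested genes called in either direction. The count is near that share and says nothing about the list as a whole. Ppp2r5a, a regulatory subunit of PP2A, had medians of 87.1 CPM in young and 106 CPM in aged controls and rose by 0.31 ± 0.08 (log2, SE; edgeR adjusted p = 0.00909), while Ppp2r5b, another such subunit, had medians of 16.1 and 12.2 CPM and fell by 0.47 ± 0.13 on the log2 scale (edgeR adjusted p = 0.0145). Aurkc, the Aurora kinase of meiotic cells, gave 7 to 16 counts in young and 2 to 6 counts in aged controls and fell by 1.72 ± 0.42 on the log2 scale (edgeR adjusted p = 0.00771), with no overlap. A lack of overlap in this direction held for 4.16% of all tested genes. No aged control or treated library reached the filter for Aurkc (highest 0.477 and 0.431 CPM), so it was tested through the young libraries alone. The separase gene Espl1 (-0.40 ± 0.27) and its inhibitor Pttg1 (-0.36 ± 0.17) did not pass. Meikin, which guards meiotic centromeres, gave 0 to 1 counts in every library.

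Between treated and untreated aged mice, 2 of the 24 had an unadjusted edgeR p under 0.05, beside 2861 of all 16959 tested genes. None of the 24 was called by edgeR. The nearest was Haspin, a histone H3 kinase that marks centromeres, at 0.982, 2.05 and 2.80 CPM as lowest, median and highest in treated mice and 2.92, 3.30 and 4.50 CPM in aged controls. All 6 treated mice lay below all 6 aged controls, which held for 0.684% of all tested genes in this direction, but the difference of -0.87 ± 0.22 (log2, SE) had an edgeR adjusted p of 0.052. DESeq2 called it. Against young controls, Haspin was 1.06 ± 0.22 lower (edgeR adjusted p = 0.00142).

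Of 35 genes of meiotic pairing and recombination, 11 were tested and 2 were called lower with age, beside 6.03% of all tested genes. Tex15, a germ cell gene needed for meiotic recombination in males, ran from 34.9 through 45.4 to 54.2 CPM in young and from 12.5 through 16.8 to 20.4 CPM in aged controls, with no overlap (-1.45 ± 0.21, log2, SE; edgeR adjusted p = 0.000174). A lack of overlap in this direction held for 4.16% of all tested genes. Syce2, a central element gene of the synaptonemal complex, had medians of 8.73 and 5.37 CPM and fell by 0.66 ± 0.17 on the log2 scale (edgeR adjusted p = 0.00909). Sycp1, the transverse filament gene, gave 0 to 9 counts per library, and Hormad1 gave 0 in all 18. None of the 11 was called between treated and untreated aged mice by edgeR or DESeq2. An unadjusted edgeR p under 0.05 was found for 2 of the 11, beside 2861 of all 16959 tested genes. Tex15 was called lower in treated mice than in young controls (-1.34 ± 0.20, log2, SE).

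Condensin and SMC5/6 complexes, the relatives of cohesin, had 14 tested genes. With age, 2 were called lower, namely Smc4 (medians 230 and 175 CPM; -0.35 ± 0.07, log2, SE; edgeR adjusted p = 0.00108) and Ncapg (medians 13.7 and 9.40 CPM; -0.54 ± 0.15; edgeR adjusted p = 0.0187), both of condensin. Of all tested genes, 6.03% were called lower with age. No condensin or SMC5/6 gene was called higher with age. None was called between treated and untreated aged mice by edgeR or DESeq2. An unadjusted edgeR p under 0.05 was found for 2 of the 14, beside 2861 of all 16959 tested genes. In treated mice against young controls, Nsmce1 (0.38) and Ncaph2 (0.26) were called higher and Smc2, Smc4 and Ncapg lower. Of all tested genes, 11.5% were called higher and 10.9% lower there.

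**Figure D5:**
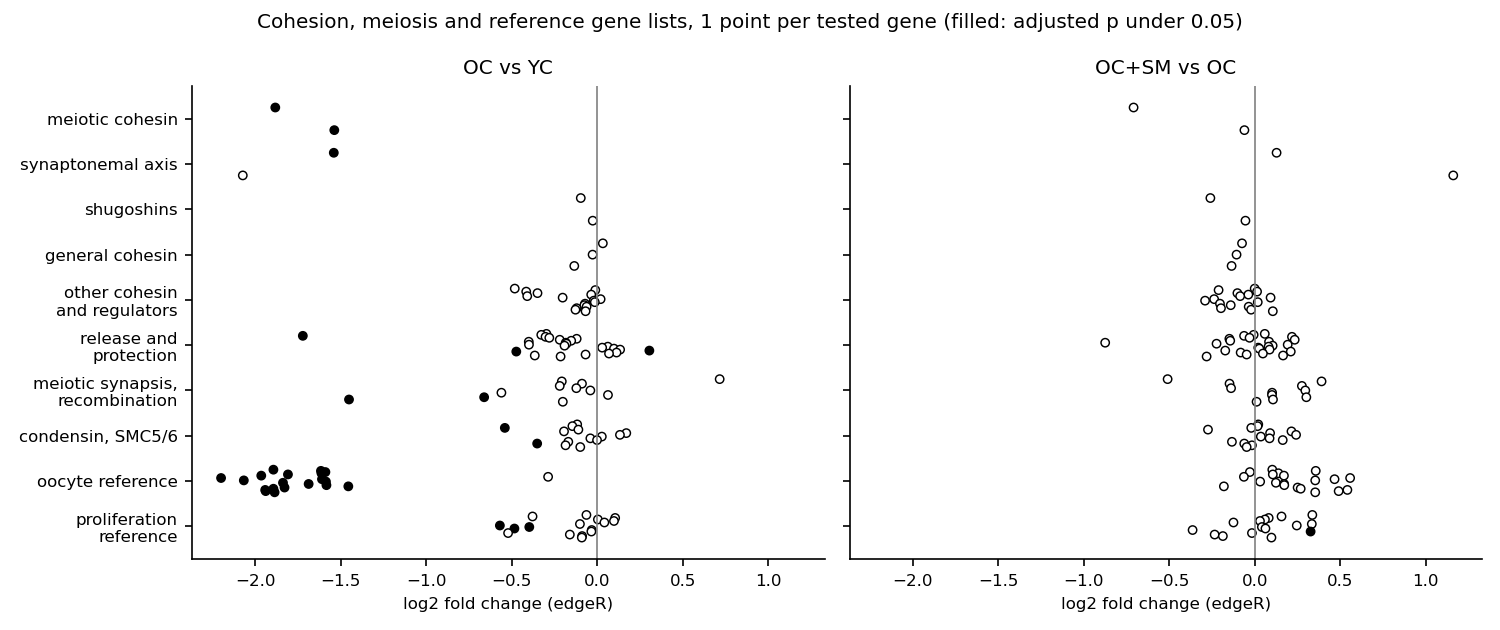
Log2 fold change (horizontal axis, edgeR) of every tested gene of the cohesion members, of the further cohesin, release, meiotic and condensin lists and of the oocyte and proliferation genes, in aged (OC) against young controls (YC) and in treated aged mice (OC+SM) against aged controls, with filled points for an adjusted p under 0.05. The oocyte genes have a median of -1.82 in aged against young controls, and the further cohesin genes one of -0.07.

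Within groups the meiotic members did not follow each other closely. Over 18 libraries with group means subtracted, Smc1b and Stag3 had r = 0.41 and Sycp2 and Sycp3 r = 0.328, at 0 to 67 counts per library for these 4 genes. The genes most like Stag3 by this measure were Mylip, Irf8 and Nobox (r = 0.81, 0.784 and 0.783). Those most like Sycp2 were Rgs11, Slc38a5 and Lztfl1 (0.825, 0.792 and 0.771), and those most like Sycp3 were Gm49270, Tfap2e and Cox6c2 (0.857, 0.827 and 0.818). These names are the top of 16959 genes and are given as a description.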

How the data were processed

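Libraries from 18 mouse ovaries were made with a 3' mRNA kit, per the labels' protocols. Build GRCm39 and the tools RSEM 1.3.3, STAR 2.7.9a and FastQC 1.9 are listed in the submitters' processing notes. The annotation release and strand setting were not given in the sources used here. The authors deposited RSEM expected counts and TPM values per gene, per the file headers; TPM divides by gene length, which does not suit 3' tags, so TPM served as an alternative. Expected counts were rounded, filtered with the edgeR filterByExpr rule (10 counts at the median depth, 15 in all; 16959 genes), scaled by TMM and tested with edgeR 4.0.16 (quasi-likelihood, two-sided, R 4.3.3) in 1 fit of 18 libraries, with Benjamini-Hochberg adjustment over all genes and a threshold of 0.05. Intervals are 95%. CPM used TMM-scaled library sizes. Floors take 3 counts and cover counting error only. Ratios were tested by exact permutation. No pair of libraries agreed within sampling noise (lowest chi-square per degree of freedom 4.03). Alternatives used DESeq2 1.42.0, limma 3.58.1 on log2(TPM + 0.1) and log2(TPM + 1), other scalings, thinning to equal depth, a covariate and leaving out libraries. Symbols came from GENCODE M21 and were matched by Ensembl identifier, and 7 listed genes were matched by an older symbol. The script was tested on simulated data.

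Members and gene lists were chosen with earlier results of these data known; Chpt1 and Kctd18 were added after overlaps were seen. Named were all members, list genes called (up to 6 per list with the smallest p), 9 fixed cohesion and meiosis genes, Gdf9, Zp3, Mki67 and Top2a, and the 3 genes most correlated with each meiotic member. Not all genes under this rule are printed, and the genes most correlated with Smc1b are not reported here.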

Additional observations from a re-analysis of the deposited data

Results flagged for a closer look

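Of 66 sets of 6 values tested for a single stray library (the levels of the 10 members and the 12 ratios in each of 3 groups), 3 were flagged, and chance flags about 1 in 20. Sgo1 in treated mouse 6 was lowest at 3.32 CPM, with the next treated mouse at 7.81 CPM. The log2 ratio of Sycp3 to the oocyte sum was lowest at -7.55 in young control 3, with the next at -6.44. The same ratio was lowest at -11.3 in treated mouse 2, which had 0 Sycp3 counts, with the next at -6.12.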

How the results depend on the processing

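Each edgeR result was recomputed under up to 23 alternatives. Smc1b stayed called lower in all 23 in both comparisons with young controls (adjusted p up to 0.000515 against aged controls and 0.000103 for treated mice), while Stag3 passed in 9 of 22 and Sycp2 in 10 of 22 between aged and young controls. Sycp3 passed in 4 of 23 there. No member was called between treated and untreated aged mice under any of the 23. Stag3 and Sycp2 had an adjusted p in only 20 of them and Sycp3 in 22, and Rec8 was not among the members followed.

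The count of members called with age was 3 and became 1 with counts thinned to the smallest library and 1 without young control 3 and treated mouse 6, and it ran from 1 to 3 when 1 library was left out. For treated mice against young controls it was 4 and became 2 thinned and 1 with the share of the most abundant gene as covariate, and it ran from 2 to 4 when 1 library was left out. Over all genes, 176 were called between treated and untreated aged mice, and the count was 669 with DESeq2, 45 with only the 12 libraries compared, 0 with the covariate (edgeR), 483 without young control 3 and treated mouse 6, and 32 to 593 with 1 library left out (32 without treated mouse 3, 593 without treated mouse 4). For treated mice against young controls, 3795 became 1368 with the covariate. The cause of these shifts was not tested.

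These directions turned under other settings, none past a threshold. Rad21 with age was -0.008 with limma on both TPM scales. For treated against untreated aged mice, Stag3 was 0.259, Sgo2a 0.043 and Smc3 0.098 with the covariate, and Stag3 was 0.119 and Sgo2a 0.072 without young control 3 and treated mouse 6. Sgo2a in treated mice against young controls was 0.017 without those libraries. The Stag3 to oocyte ratio with age was 0.089 with an offset of 1 count and 0.053 with a geometric mean of the reference, and the Sycp3 to oocyte ratio in treated mice against young controls was 0.073 with an offset of 1 count.

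With 1 library left out, log2 values ran as follows where the direction turned. With age, Sgo2a ran from -0.066 to 0.036, Stag3 to oocyte from -0.253 to 0.315 and Sycp2 to oocyte from -0.605 to 0.051. For treated against untreated aged mice, Stag3 ran from -0.376 to 0.435, Sycp2 from -0.088 to 0.654, Sgo2a from -0.216 to 0.073, Rec8 to Rad21 from -0.36 to 0.484 and Stag3 to Stag2 from -0.489 to 0.218. For treated mice against young controls, Sgo2a ran from -0.241 to 0.043, Sycp2 to oocyte from -0.012 to 0.291 and Sycp3 to oocyte from -0.424 to 0.852, the last without treated mouse 2 and past the threshold (exact permutation test, adjusted p = 0.0195).

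In treated mice against young controls, Stag3 passed in 20 of 22 alternatives, Sycp2 in 8 of 22, Smc3 in 16 of 23 and Smc1a, which had not passed, in 4 of 23. Thinning dropped Stag3 and Sycp2 from the genes tested, so these genes and Rec8 sit at the limit of this depth.

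With the replicate number as a block, 2, 0 and 3 members and 1756, 139 and 3535 genes were called in the 3 comparisons, and Sycp2 was lost in both comparisons with young controls (adjusted p = 0.0582 and 0.0503). Same-numbered mice correlated between -0.118 and 0.074, so the numbers gave no pairing.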
